A study of Mus musculus with 6 samples.

Results

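The genes described here carry the canonical Wnt signal from the cell surface to the nucleus: the frizzled receptor genes Fzd2 and Fzd7, the co-receptor genes Lrp5 and Lrp6, the beta-catenin gene Ctnnb1, the Tcf/Lef transcription factor genes Lef1, Tcf7, Tcf7l1 and Tcf7l2, and the feedback target gene Axin2. They were chosen by name, 10 genes in all, and every probe set annotated to exactly 1 of these symbols was taken. That gave 21 of 45037 probe sets and 9 of 18193 genes, since no probe set for Tcf7 was analysed here. RNA came from hearts of E10.5 mouse embryos of the C57BL/6N background, with 3 Affymetrix arrays of wild type (WT) and 3 of a global RhoE knockout (KO). RhoE, encoded by Rnd3, is a small GTP-binding protein, and the knockout was made with a gene trap that acts in every tissue, not in the heart alone. The series describes its embryos as pairs of littermates and gives death of the knockouts from about this stage onward. The number of hearts behind each array is not given, so the p-values below measure the spread between these arrays.

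In canonical signalling a Wnt ligand joins a frizzled receptor to Lrp5 or Lrp6, which stops a cytoplasmic complex of Axin, Apc and kinases from marking beta-catenin for destruction. Beta-catenin then enters the nucleus, binds Tcf/Lef proteins at DNA with a CTTTG core and switches on targets, among them Axin2, whose protein dampens the signal again. In the embryonic heart the pathway is known for keeping second heart field progenitors dividing and for its part in the endocardial cushions, from which valves form.

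The troponin gene Tnnt2, a marker of heart muscle, was bright on all 6 arrays, with signals of 28236 to 32559. Rnd3 read 862 to 954 in WT and 5.89, 12.3 and 121 in KO. Xist, which marks female tissue, read 10251 to 12474 in WT and 539, 8884 and 28.4 on arrays 1, 2 and 3 of the KO group. The Y-linked gene Uty read 105 to 192 in WT and 594, 297 and 532 on those KO arrays. Eif2s3y, also Y-linked, read 312 to 551 in WT and 2214, 793 and 2339 in KO. The WT arrays thus also gave Y-linked signals, at a lower level. Genotype and the sex of the tissue are only partly separated, by KO array 2. That array had high Xist, with Y-linked signals between those of WT and of the other KO arrays. The 3' to 5' Gapdh signal ratio, which tracks RNA integrity, was 1.09 to 1.13 in WT and 0.939 to 0.993 in KO. The same ratio for Actb overlapped between the groups, at 2.35 to 2.62 in WT and 2.22 to 2.54 in KO. Array 1 of the KO group correlated with the WT arrays at r = 0.9795 to 0.9810 over 12712 genes, above its correlation with KO array 2 (0.9759) or 3 (0.9783). In a bulk heart, fewer cells of a type and less RNA per cell cannot be told apart.

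The letters upstream of the start sites were read for short motifs that Tcf/Lef proteins are known to bind. Binding itself was not measured. RefSeq windows (build GRCm38.p6) were matched by symbol for 7 of the 10 genes, 13 windows in all, and the 250 bases before each start were searched on both strands for CTTTGA and CTTTGT, common forms of the Tcf/Lef core. Over 32851 such windows of all genes, 27.6% held at least 1 match, and 4 of the 13 windows of these genes did. The main windows of Lef1 and Fzd7 are shown as examples of genes whose brightest probe sets were lower on every KO array, and that of Tcf7l1 as one whose brightest probe set was not. Lrp6 has no window in the table. Each runs 5′ to 3′ on the gene's strand and ends just before the start, with matches in capitals. Lef1 lies on the plus strand at chr3:131110047-131110296, Fzd7 on the plus strand at chr1:59481897-59482146 and Tcf7l1 on the minus strand at chr6:72789046-72789295.
Lef1: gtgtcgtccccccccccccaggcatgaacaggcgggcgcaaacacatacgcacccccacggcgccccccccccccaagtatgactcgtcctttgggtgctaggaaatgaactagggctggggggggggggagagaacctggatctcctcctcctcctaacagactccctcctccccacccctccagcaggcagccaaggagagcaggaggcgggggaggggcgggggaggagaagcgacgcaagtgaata
Fzd7: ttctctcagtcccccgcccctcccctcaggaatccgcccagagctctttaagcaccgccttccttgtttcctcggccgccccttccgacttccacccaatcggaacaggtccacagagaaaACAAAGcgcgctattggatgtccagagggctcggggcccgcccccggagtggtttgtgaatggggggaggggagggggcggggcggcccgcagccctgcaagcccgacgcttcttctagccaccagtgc
Tcf7l1: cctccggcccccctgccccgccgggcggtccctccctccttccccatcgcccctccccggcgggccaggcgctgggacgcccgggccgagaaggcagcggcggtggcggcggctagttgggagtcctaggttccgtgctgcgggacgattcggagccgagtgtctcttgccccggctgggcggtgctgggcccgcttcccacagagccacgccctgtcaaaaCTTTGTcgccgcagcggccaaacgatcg

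The main Lef1 window held neither motif. Fzd7 held ACAAAG, the reverse complement of CTTTGT, 123 bases before its start, and Tcf7l1 held CTTTGT 22 bases before its start. A later Lef1 start listed by RefSeq, inside the gene, had 3 matches on the opposite strand in its window, 174, 140 and 114 bases before that start. They are shown as the 30 bases around each, at chr3:131156102-131156131, chr3:131156136-131156165 and chr3:131156162-131156191 on the plus strand.
Lef1 match a: taaaatacatggTCAAAGgaaaataggtat
Lef1 match b: caacctcagaatACAAAGtaggattgcatt
Lef1 match c: cattgtctgttcTCAAAGtcaggtcttgca
A later Tcf7l2 start had CTTTGT 8 bases before it, shown with the bases around it up to that start, at chr19:55895295-55895320 on the plus strand, since the brightest Tcf7l2 probe set was also lower on every KO array.
Tcf7l2 match: caaaatatcaggCTTTGTtcttttga
The Axin2 window, the windows of Ctnnb1 and Tcf7, the first of Tcf7l2 and the remaining ones of Lef1 held no match. Fzd2, Lrp5 and Lrp6 had no window in the table. None of the windows of Axin2, Tcf7 and Tcf7l2 lay wholly outside the span of its gene. For these genes, a stretch wholly before the gene was therefore not searched. A match is a description of the letters, and which start the hearts used was not analysed here.

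In the comparison of KO with WT hearts, 2 of the 9 genes fell, namely the transcription factor gene Lef1 and the co-receptor gene Lrp6, and none rose. The test was limma across 12712 genes, 1 probe set a gene, called at a Benjamini-Hochberg adjusted p under 0.05. Over all genes 0.488% were called lower by that rule and 0.787% higher. All KO arrays lay below all WT arrays for 4 of the 9 genes (Lef1, Lrp6, Fzd7 and Tcf7l2), against 15.5% of all genes, and above them for Ctnnb1, against 10.8%. The median log2 fold change of the 9 genes was -0.42, beside -0.04 over all tested genes. When all probe sets were tested singly, limma called 0 of the 19 member probe sets that were bright enough to test, while 0.595% of all 27404 probe sets were called. An unadjusted p under 0.05 was found for 6 of the 19, against 16.8% of all probe sets.

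**Figure D1:**
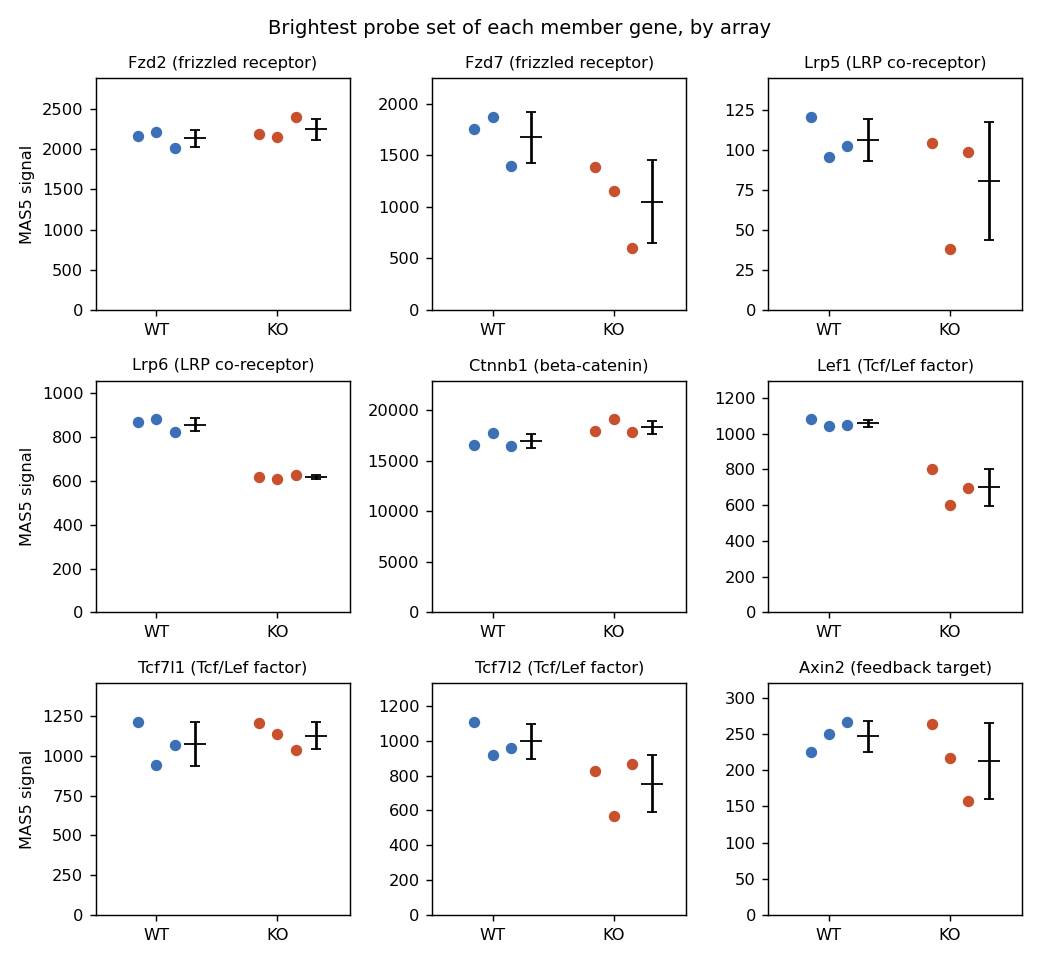
MAS5 signal (linear scale, from 0) of the brightest probe set of each member gene on the 3 WT (blue) and 3 KO (orange) arrays, replicates 1 to 3 from left to right, with mean and SD in black. The groups are apart for Fzd7, Lrp6, Ctnnb1, Lef1 and Tcf7l2 and overlap for Fzd2, Lrp5, Tcf7l1 and Axin2.

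Among the Tcf/Lef factors, Lef1, which hands the beta-catenin signal to target genes, read 1080, 1043 and 1050 in WT arrays 1 to 3 and 805, 599 and 696 in KO arrays 1 to 3. The WT arrays sat within a narrow band, and every KO array lay below it. The difference was a log2 fold change of -0.61 (SE 0.12, 95% interval -0.87 to -0.34, adjusted p = 0.0443), or 1.52-fold lower. A second Lef1 probe set (1421299_a_at) was dim, near the low-signal limit of 44.5 to 52.8, at 70.3 ± 23.0 in WT and 60.8 ± 2.72 in KO (SD, n = 3 per group). Its groups overlapped, with a difference of -0.16 (95% interval -0.90 to 0.57). The call on Lef1 ended without WT array 1, 2 or 3 (adjusted p = 0.162, 0.192 and 0.120), without KO array 2 or 3 (0.0696 and 0.135), without the filter on dim probe sets (0.0587), without the intensity trend (0.206) and with probe sets tested singly (0.0581). With the gene's 2 probe sets averaged it was also lost, at -0.38 (adjusted p = 0.349). Without WT array 1, 2 or 3 the log2 fold change of Lef1 was -0.59, -0.62 and -0.61. Those fits called 0, 0 and 4 of all 12712 genes. Without KO array 2 or 3 the Lef1 value was -0.50 and -0.61, in fits that called 65 and 2 genes.

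Tcf7l2, the Tcf/Lef factor known for its role in the gut and in glucose control, gave different answers on different probe sets. Its brightest (1429427_s_at, a type of probe set that can match more than 1 transcript) read 1108, 919 and 960 on the WT arrays and 824, 570 and 869 on the KO arrays. All KO arrays were below all WT arrays, KO array 2 by far the most, at -0.42 (95% interval -0.77 to -0.08), which did not pass (adjusted p = 0.169). A neighbouring probe set designed from the same sequence record (1429428_at) read 889, 791 and 730 on the WT arrays and 788, 973 and 847 on the KO arrays, a difference of 0.11 (95% interval -0.16 to 0.39). On KO array 2 the first was at its lowest and the second at its highest. The remaining probe sets of Tcf7l2, at 225 ± 34.8 and 57.8 ± 33.9 in WT, differed by -0.67 and 0.18 with intervals that include 0.

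Tcf7l1, which encodes a Tcf protein that mostly represses targets while beta-catenin is absent, also split. Its brightest probe set (1450117_at) read 1212, 940 and 1070 on the WT arrays and 1207, 1136 and 1039 on the KO arrays, with overlapping groups and a log2 fold change of 0.07 (95% interval -0.18 to 0.33, adjusted p = 0.760). The other (1436207_at) read 761, 887 and 903 on the WT arrays and 664, 710 and 655 on the KO arrays. There every KO array was below every WT array, by -0.33 (SE 0.12, 95% interval -0.58 to -0.07), which did not pass over all probe sets (adjusted p = 0.184).

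At the cell surface, Lrp6, the co-receptor whose phosphorylated tail captures Axin, read 870, 880 and 822 on the WT arrays and 618, 607 and 626 on the KO arrays on its brighter probe set (1428500_at). The KO arrays agreed within an SD of 9.45 around 617, and the WT arrays within 31.2 around 857. The log2 fold change was -0.47 (SE 0.10, 95% interval -0.69 to -0.25, adjusted p = 0.04998), or 1.39-fold lower, just inside the threshold. The dimmer Lrp6 probe set (1451022_at) read 326, 319 and 221 on the WT arrays and 283, 300 and 357 on the KO arrays, with overlapping groups and a difference of 0.13 (95% interval -0.26 to 0.53). Averaging both gave -0.17 (adjusted p = 0.581), and 13 of 16 alternatives ended the call. Among these were leaving out WT array 1, 2 or 3 (adjusted p = 0.173, 0.213 and 0.120) or KO array 2 or 3 (0.0781 and 0.141), a block for the replicate number (0.0630). Tested singly over all probe sets, the brighter one had an adjusted p of 0.0680.

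Lrp5, the other co-receptor, was dim, at 121, 95.7 and 103 in WT and 105, 38.1 and 98.8 in KO. Only KO array 2 stood apart, below the low-signal limit, and the difference of -0.53 had a wide interval (-1.36 to 0.30, adjusted p = 0.467). Without that array it was -0.06.

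Fzd7, a frizzled receptor known from stem and progenitor cells, showed the lowest log2 fold change of the 9 genes. It read 1757, 1873 and 1401 on the WT arrays and 1392, 1159 and 605 on the KO arrays. The groups did not overlap, but WT array 3 and KO array 1 differed by only a few units while KO array 3 was far below the rest. The log2 fold change was -0.75 (SE 0.25, 95% interval -1.29 to -0.20) and did not pass (adjusted p = 0.130). It passed without KO array 1 (-0.99, adjusted p = 0.0312), with array weights (-0.95, adjusted p = 0.0465) and in a fit blocked on the replicate number (-0.75, adjusted p = 0.0380), and was -0.39 without KO array 3. A second Fzd7 probe set was above the low-signal limit on 1 array only, a WT one, and was not tested.

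Fzd2, a close relative of Fzd7, did not follow it. Its brightest probe set read 2168, 2217 and 2019 on the WT arrays and 2190, 2158 and 2400 on the KO arrays, and the log2 fold change of 0.08 had a 95% interval of -0.12 to 0.27 (adjusted p = 0.679). The other Fzd2 probe sets, from the same sequence record, differed by 0.02 and -0.08, with overlapping groups. The intervals of Fzd2 and Fzd7 do not meet, although the difference between the genes was not tested itself.

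Ctnnb1, whose protein carries the signal, was the only member with higher signals on all its probe sets. The brightest read 16578, 17716 and 16462 on the WT arrays and 17955, 19078 and 17837 on the KO arrays, all KO arrays above all WT arrays, at 0.11 (95% interval -0.03 to 0.26, adjusted p = 0.369). The next read 1207 ± 161 in WT and 1468 ± 259 in KO, at 0.28 (95% interval -0.05 to 0.60). The dimmest read 198 ± 34.5 and 257 ± 8.23, at 0.39 (95% interval 0.02 to 0.75), again without overlap, and none of the 3 passed. The 19 tested probe sets of all members together had 10 negative and 9 positive differences, with a median of -0.08 beside -0.03 over all probe sets tested. Groups did not overlap with KO lower for 5 of them, against 13.0% of all probe sets, and with KO higher for 2, against 10.1%.

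Axin2, the target gene most often read as a measure of canonical signalling, was measured at 225, 249 and 267 in WT and 264, 217 and 158 in KO. KO array 1 lay among the WT arrays and KO array 3 below all of them. The log2 fold change was -0.24 (SE 0.19, 95% interval -0.67 to 0.19, adjusted p = 0.517), so a fall as large as that of Lef1 lies within the interval, as does no change. It was -0.04 without KO array 3 and -0.41 without KO array 1. The other Axin2 probe set stayed under the low-signal limit on each of the 6 arrays.

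**Figure D2:**
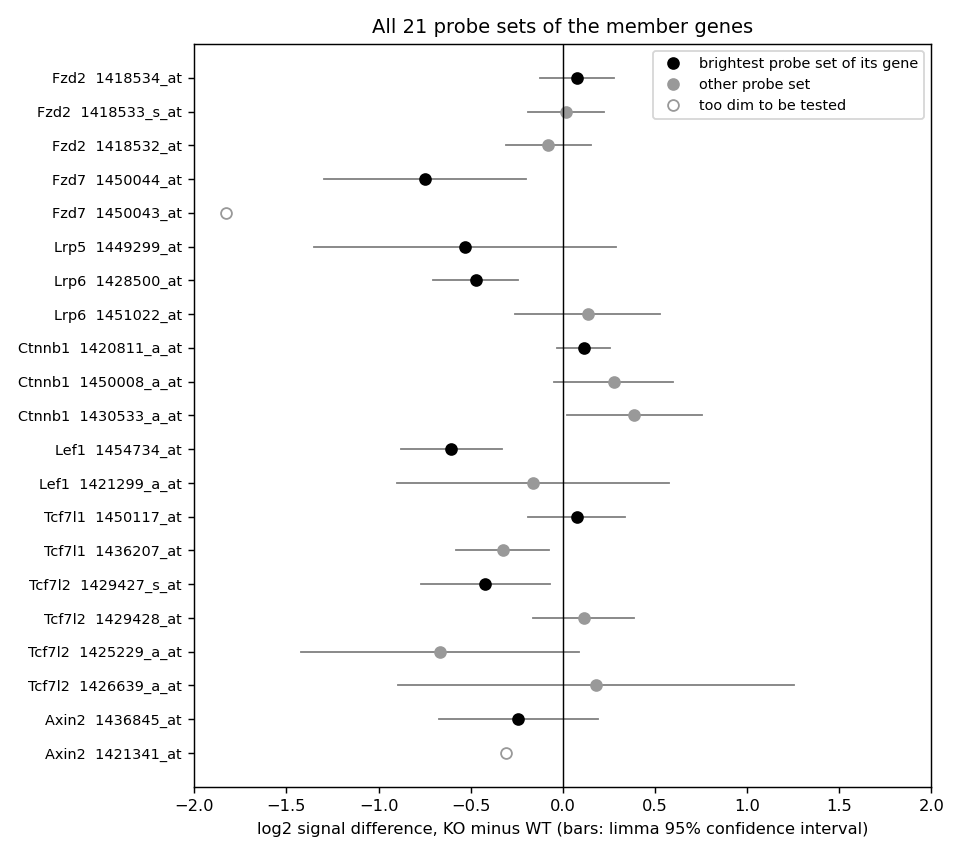
Difference in mean log2 signal, KO minus WT, for all 21 member probe sets, with limma's 95% confidence interval for the 19 tested ones. Black points are the brightest probe set of a gene. Fzd2, Lrp6, Tcf7l1 and Tcf7l2 each have points on both sides of 0.

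For Lrp6, Tcf7l1 and Tcf7l2 the ratio of the 2 brightest probe sets of the gene was taken on each array, a measure that does not depend on scaling between arrays. These genes were singled out after their values were seen, so no test is given. The log2 ratio of the brighter to the dimmer Lrp6 probe set was 1.42, 1.47 and 1.90 in WT and 1.13, 1.02 and 0.81 in KO. Every KO array was below every WT array, by 0.61 on average (-0.61, KO minus WT). For Tcf7l2 the ratio was 0.32, 0.22 and 0.40 in WT and 0.06, -0.77 and 0.04 in KO, again without overlap and with KO array 2 far lower. For Tcf7l1 it was 0.67, 0.08 and 0.24 in WT and 0.86, 0.68 and 0.66 in KO, and WT array 1 lay among the KO arrays. Which parts of the transcripts these probe sets read was not analysed here.

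**Figure D3:**
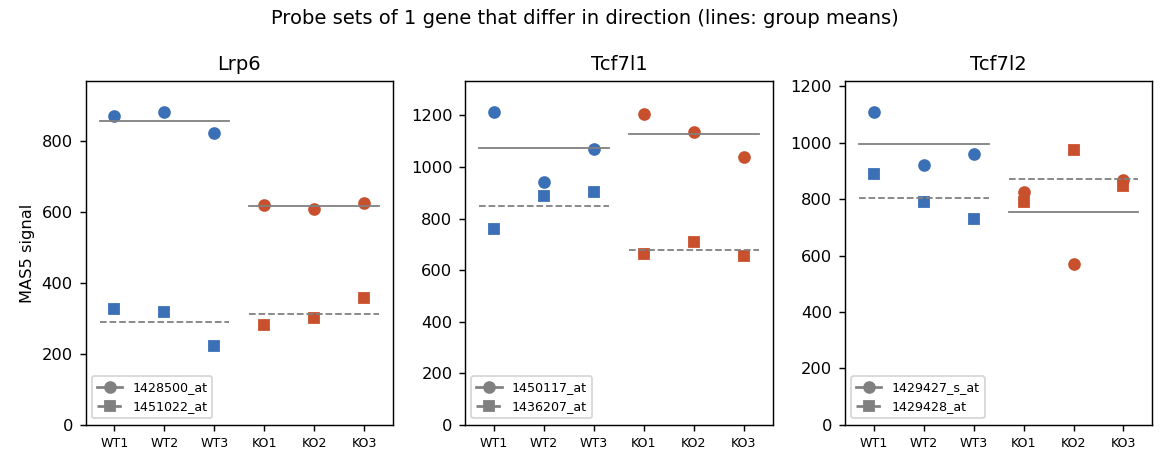
MAS5 signal (linear scale, from 0) of the 2 brightest probe sets of Lrp6, Tcf7l1 and Tcf7l2 on each array, WT in blue and KO in orange. Circles with solid mean lines are the brighter probe set and squares with dashed lines the dimmer one, and for Lrp6 the circles drop from 857 to 617 on average while the squares go from 288 to 313.

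The members' profiles were compared as the root mean square (RMS) difference between log2 signals over the 6 arrays, each gene centred on its own mean. A small value means changes alike in direction and size. The signals were not scaled to a like spread, so a large value can come from the size of a change alone. Fzd7, lower on every KO array, and Ctnnb1, higher on every one, were thus both 0.39 from Lef1. Lef1 and Lrp6 were 0.14 apart, Lef1 and Tcf7l2 0.16, and Lef1 and Axin2 0.29. The other members were farther from Lef1, at 0.37 for Fzd2 and Tcf7l1, 0.38 for Lrp5 and 0.39 for Fzd7 and Ctnnb1. Among all tested genes outside the members, those most like Lef1 were Btaf1, a regulator of the TATA-binding protein (RMS 0.03, log2 fold change -0.63), Tiparp, an ADP-ribosyltransferase (0.05 and -0.53), and Prdm6, a transcriptional regulator of smooth muscle (0.05 and -0.54). Those most like Lrp6 were Phrf1, a ubiquitin ligase (RMS 0.04, log2 fold change -0.49), Alkbh1, a nucleic acid demethylase (0.04 and -0.48), and Nucks1, a nuclear chromatin protein (0.04 and -0.41). With 12712 genes and 6 arrays, profiles this close are a description only.

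The other genes of the pathway were taken from a list of 94, of which 92 had a probe set and 78 were tested. Of these 78, 2 fell, Apc and Tbx3, and 0 rose in limma over all genes, against 0.488% and 0.787% of all genes. An unadjusted p under 0.05 was found for 21, against 20.3% of all genes. In all 49 had a negative and 29 a positive log2 fold change, with a median of -0.07 beside -0.04 over all tested genes. KO lay wholly below WT for 17, against 15.5% of all genes, and wholly above for 3, against 10.8%.

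Of the 16 dishevelled and destruction complex genes 1 fell and none rose, and 13 had negative values (median -0.19). Apc, the scaffold that holds beta-catenin for destruction, read 1851, 1619 and 1801 on the WT arrays and 1262, 1163 and 1142 on the KO arrays (-0.56, SE 0.10, adjusted p = 0.0360). Another Apc probe set (1420956_at) went the other way, from 1222, 1087 and 1082 in WT to 1304, 1598 and 1285 in KO. Its groups did not overlap, at 0.30 (adjusted p = 0.225 over probe sets). A dimmer one (1420957_at) was at -0.27, with overlapping groups (adjusted p = 0.515 over probe sets). The dimmest Apc probe set, at -0.28, was not tested. Csnk1d, a casein kinase, had -0.39 (adjusted p = 0.0535). Averaging the probe sets of Apc gave -0.20 (adjusted p = 0.508), and its call also ended without WT array 1, 2 or 3 or KO array 3 (adjusted p from 0.120 to 0.170).

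Of the 11 tested Wnt ligand genes none passed (median -0.18). Wnt2, a ligand of the inflow region, read 1271, 1270 and 1033 on the WT arrays and 1225, 506 and 285 on the KO arrays, with KO array 1 among the WT arrays (-1.08, adjusted p = 0.154). Wnt10a did not reach the low-signal limit on any WT array and was just above it in KO, higher by at least 1.12-fold (adjusted p = 0.212). None of 11 other frizzled and alternative receptor genes passed (median -0.10). Fzd4 had -0.73 (adjusted p = 0.0609), with 648, 757 and 652 in WT and 551, 331 and 382 in KO, and Ror2, a receptor for Wnt5a outside the canonical route, had 0.41 (adjusted p = 0.0861). None of 7 R-spondin, Lgr and receptor ubiquitin ligase genes passed (median -0.11), with Lgr5 at -1.03 (adjusted p = 0.241) and Rspo2 at -0.99 (adjusted p = 0.423), both dim.

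None of 10 secreted inhibitors and their receptors passed (median 0.06). Sfrp1, which binds Wnt ligands outside the cell, had 0.64 (adjusted p = 0.0608), with 1513, 1571 and 1957 in WT and 2276, 3311 and 2330 in KO, so that every KO array was higher. Dkk1, which blocks Lrp5 and Lrp6, had -0.67 (adjusted p = 0.261), with KO array 3 among the WT arrays. None of 14 nuclear co-factors passed (median -0.10), with the chromatin remodeler gene Chd8 at -0.36 (adjusted p = 0.0701) and the co-repressor gene Tle3 at -0.46 (adjusted p = 0.0747). Of 9 other Wnt target genes 1 fell (median 0.06), the transcriptional repressor gene Tbx3. It read 683, 764 and 618 on the WT arrays and 434, 347 and 396 on the KO arrays (-0.81, SE 0.13, adjusted p = 0.0344). Another Tbx3 probe set (1437479_x_at) was also lower on every KO array, at -0.55 (adjusted p = 0.113 over probe sets). The average of all 5 Tbx3 probe sets was -0.20 (adjusted p = 0.808) and included 2 that were under the low-signal limit on all arrays, at 0.33 and 0.58. The call on Tbx3 ended without WT array 1, 2 or 3 or KO array 3 (adjusted p = 0.150, 0.185, 0.111 and 0.122). Apcdd1, a Wnt-induced inhibitor, had 0.40 (adjusted p = 0.195).

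**Figure D4:**
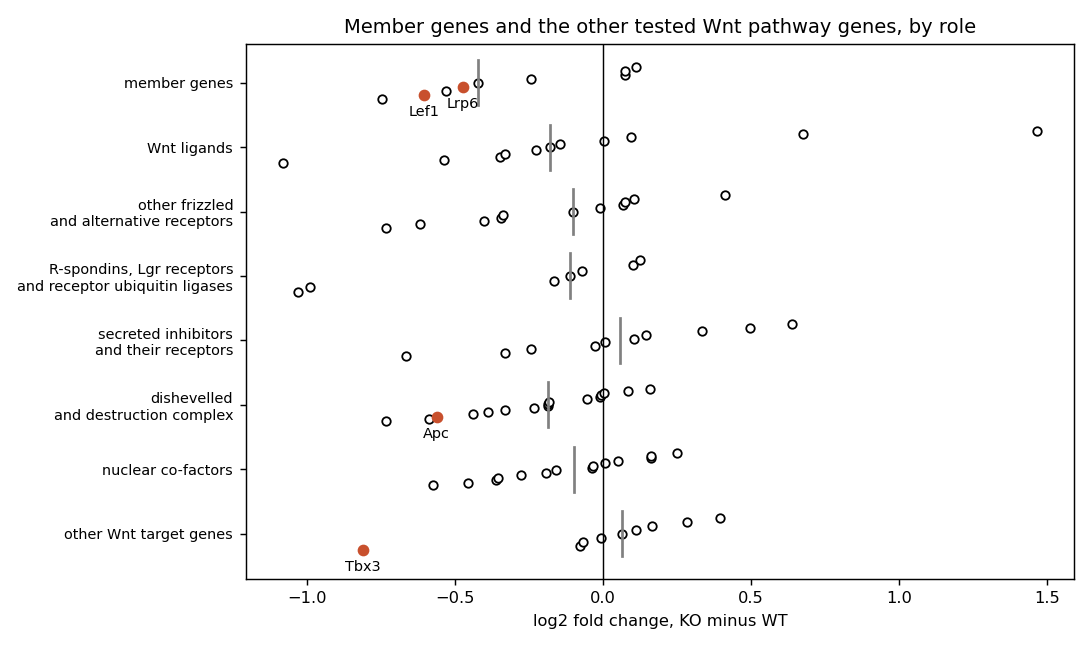
Log2 fold change, KO minus WT, of the 9 member genes and the 78 other tested Wnt pathway genes, 1 row per role, points spread vertically only to separate them. Filled points passed the threshold (Lef1, Lrp6, Apc and Tbx3, all lower in KO), open points did not, and grey bars are medians, which run from -0.42 for the members to 0.06 for target genes and secreted inhibitors.

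Markers of the tissues that could contribute to these signals were summed over each list on each array. The sum over 6 measured markers of foregut and surface epithelium was 5206 to 5731 in WT and 2627 to 4809 in KO, and that over 5 markers of second heart field and pharyngeal mesoderm 1371 to 1549 in WT and 862 to 1295 in KO, both without overlap. Most of the epithelial sum came from the keratin genes Krt8 (3006 to 3563 in WT and 1248 to 2987 in KO) and Krt18 (1655 to 1924 and 1017 to 1613), while Shh, Epcam and Cdh1 were dim and overlapped. In the epithelial list all 5 tested genes had negative values and in the second heart field list 3 of 5, and none passed. The Isl1 signal, which defines second heart field cells and made up most of that list's sum, was 1082 to 1169 in WT and 598 to 1000 in KO. The sum over 7 liver and yolk sac endoderm markers was 1505 to 7255 in WT and 320 to 2040 in KO, with overlap. In WT most of it came from Afp (1116 to 6054, and 2.78 to 1074 in KO), while Apoa1, Apob, Ttr and Rbp4 overlapped. Of the 6 tested 1, the albumin gene Alb, fell (-1.97, adjusted p = 0.049997). Alb was above the low-signal limit on only 1 KO array. The sum over 5 macrophage markers was 689 to 722 in WT and 741 to 1705 in KO, and 1 of the 4 tested, the lysozyme gene Lyz2, rose (1.38, adjusted p = 0.0374). The other 3 tested, Csf1r, Cd68 and Adgre1, had -0.02, 0.09 and 0.02, with overlapping groups. Sums of cushion mesenchyme (8282 to 9570 and 7967 to 10936), endothelium and endocardium (5757 to 6610 and 6138 to 7061) and epicardium (7789 to 8185 and 5665 to 9688) overlapped. So did the sum over 8 cardiomyocyte markers, at 221682 to 235285 in WT and 209718 to 230892 in KO. Of these, 5 had negative and 3 positive values, and none passed. Myh6 (-0.25, adjusted p = 0.109) and Nkx2-5 (-0.29, adjusted p = 0.262) were lower on every KO array. Among the 7 endothelial and endocardial markers, 5 had positive and 2 negative values, and none passed. Emcn (0.54, adjusted p = 0.101) and Tek (0.12, adjusted p = 0.455) were higher on every KO array. Of the 4 neural crest markers measured, Foxd3 and Tfap2b stayed under the low-signal limit throughout. Whether these shares, the Gapdh ratio or the sex of the tissue had a part in the values of Lef1, Lrp6 and Fzd7 was not tested beyond 1 fit that took each array's Xist signal, relative to WT, as a covariate. There Lef1 was at -0.90 (adjusted p = 0.0178), Lrp6 at -0.51 (adjusted p = 0.0972) and Fzd7 at -0.39 (adjusted p = 0.618). Tcf7l2 at -1.002 (adjusted p = 0.0112) and Lrp5 at -1.90 (adjusted p = 0.0332) passed in that fit, where KO array 2 carries a weight of 1.26 and KO arrays 1 and 3 carry -0.09 and -0.17.

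**Figure D5:**
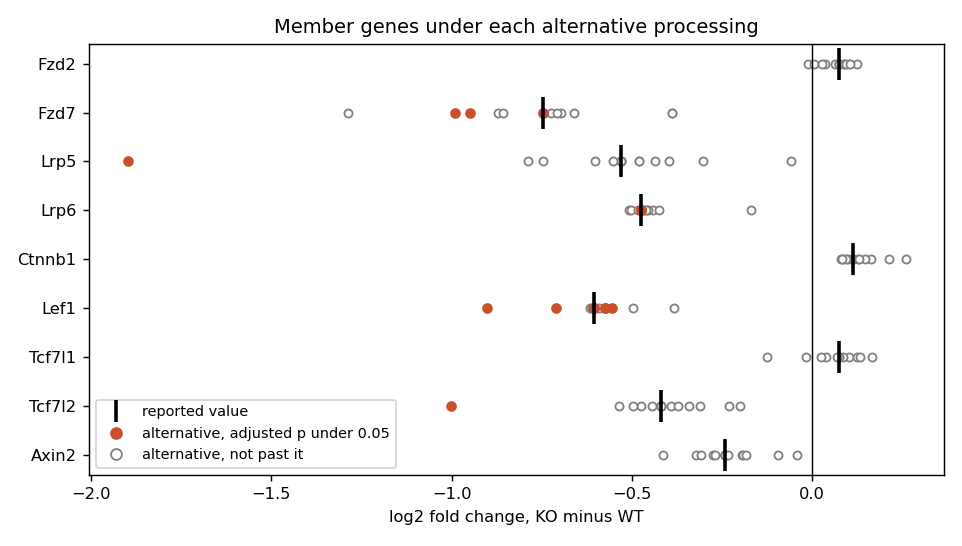
Log2 fold change, KO minus WT, of each member gene as reported (black bar) and under each alternative processing (circles, filled where the adjusted p was under 0.05). Lef1, Lrp6, Fzd7, Lrp5, Tcf7l2 and Axin2 stay below 0 in all alternatives run, Ctnnb1 stays above 0, and Fzd2 and Tcf7l1 cross it. The filters, the variance model and the replicate block change the adjusted p only, not the fold change.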

How the data were processed

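The members and the lists were chosen with earlier results of these data known. Per the submitters' processing notes, the authors made the deposited signal intensities with MAS5 and Affymetrix Expression Console, on a linear scale; the sources used here do not give versions, settings or a genome build. Each array's mean, leaving out 2% of values at either end, was 500, and arrays were not rescaled, so changes are relative to that mean. The 64 control probe sets were left out. Of 45037 others, 34945 had 1 gene symbol in the platform's annotation, 932 had several and 9160 were unnamed here.

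Signals were taken to log2. A gene was represented by its brightest probe set by mean log2 signal and tested if above a low-signal limit, each array's 40th percentile, on at least 3 of the 6 arrays, a working limit in place of detection calls. Genes were fitted in R 4.3.3 by limma 3.58.1 with eBayes and an intensity trend, all 6 arrays, KO minus WT, Benjamini-Hochberg over 12712 genes, or over 27404 probe sets tested singly. "Rose" and "fell" mean past an adjusted p of 0.05, in two-sided tests. Errors of fold changes are limma's standard errors. "At least N-fold" sets the bright group's mean log2 signal against the dim group's, each dim array taken at the higher of the limit and its own signal. Signals of different probe sets are not compared as levels. Named are all members and their probe sets, other pathway genes past the threshold or among the 2 smallest p of their role, and the 3 genes most like each called member. The procedure was tested on simulated data. Alternatives covered normalization, centring, floor, filters, variance model, array weights, replicate block, an Xist covariate, averaging all probe sets of a gene, dim ones included, and leaving out each array. For arrays, their number limits the precision. Figures were drawn with matplotlib 3.10.9.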

Additional observations from a re-analysis of the deposited data

How the results depend on the processing

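The count of 2 called member genes was 1 with quantile normalization, median centring or a floor at the low-signal limit, and 0 without the filter, without the intensity trend or with probe sets averaged; it ran from 0 to 3 when 1 array was left out. Of the member probe sets, 0 in the reported fit, 1 passed with the floor, 1 with the stricter filter, 2 with array weights and 3 with the Xist covariate, and 0 to 2 with 1 array left out. The 2 other pathway genes became 0 without the filter, without the trend or with probe sets averaged, 5 with the stricter filter, 9 with array weights, 5 with the Xist covariate, and 0 to 10 with 1 array left out. Over all genes 162 passed, against 312 with median centring, 1 without the filter, 1 without the trend, 291 with the stricter filter, 542 with array weights, 819 with the covariate, 0 with probe sets averaged and 0 to 916 with 1 array left out (916 without KO array 1, 0 without WT array 1 or 2). Without WT array 3, KO array 2 or KO array 3 the count over all genes was 4, 65 and 2. The share of calls that were higher was 61.7%, against 81.1% with median centring and 37.4% with the covariate. Fzd2 was at -0.012 with the covariate, and Tcf7l1 at -0.13 with probe sets averaged and at -0.018 (without WT array 2) to 0.17 (without WT array 1) when 1 array was left out. Median centring moved the median over all genes from -0.04 to 0.01.

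Same-numbered WT and KO arrays deviated together by correlations of 0.0182, 0.0573 and 0.0150. Arrays of different number were not compared, so these values do not decide whether the numbers mark littermate pairs. With the replicate number as a block, 2 member genes, 0 member probe sets, 3 other pathway genes and 189 genes in all passed. The member genes called there were Lef1 and Fzd7 (limma adjusted p = 0.0380 for each). Lrp6, called in the reported fit, did not pass with the block (0.0630). Dim probe sets, such as those of Lrp5 and the second ones of Lef1 and Axin2, lie near the low-signal limit, and their differences are the least certain. Every Lef1, Lrp6, Fzd7, Tcf7l2 and Axin2 value in the alternatives run was below 0. The filters, the variance model and the replicate block leave a fold change as it is, so those alternatives could not alter its sign. No alternative took a dimmer probe set alone, and those of Lrp6 (1451022_at) and Tcf7l2 (1429428_at) were at 0.13 and 0.11.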
